A study of Mus musculus with 6 samples.

Results

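The genes of cholesterol synthesis and lipid transport were read in the cerebral cortex of SAMP8 and SAMR1 mice. The 32 members were taken by gene symbol from a list of the pathway, and all 32 were found on the array, with 70 probe sets among the 39383 probe sets that carried a symbol and 22527 gene symbols in all. On this array the transcripts of a gene are read by probe sets, each made of several short probes. Each gene was read from its brightest probe set, the one with the highest mean log2 signal over the groups, and 21 of the 32 members had 2 or more probe sets.

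The study compared 3 groups of male mice, labelled 16 weeks old, with 2 arrays in each. SAMR1 + Water is the senescence-resistant control strain, SAMP8 + Water is the senescence-accelerated strain given water, and SAMP8 + STEE is the same strain given sugarcane top ethanolic extract by mouth at 20 mg/kg. Administration of water or extract ran for 30 days and went on through 8 days of behavioral testing, and the methods state that BrdU was given in the drinking water. Tissue was taken after the testing, and the methods do not state the age of the mice at that point. The strains were measured at a single age, so a difference of strain and a difference of aging cannot be told apart. The values used here are the authors' group means, with no value for a single mouse, and the p-values of the authors' own comparisons were left unused. No error between mice and no test is therefore given, and each difference describes these groups of arrays. A group mean is given to 2 decimals, and rounding alone can move a difference by up to 0.01.

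Cholesterol in the brain is made locally, because lipoproteins of the blood do not cross the blood-brain barrier, and most of it lies in myelin. The synthesis starts from acetyl-CoA, passes through mevalonate, farnesyl diphosphate and squalene, and ends with the removal of methyl groups and the shifting of double bonds in the sterol ring. Its enzymes are transcribed under SREBP2, which the escort protein SCAP carries out of the endoplasmic reticulum when sterols are low and which the INSIG proteins hold back when sterols are high. Astrocytes load cholesterol onto apolipoprotein E through ABCA1 and ABCG1, neurons take the particles up through receptors such as LRP1, and the 24-hydroxylase CYP46A1 turns surplus cholesterol into a sterol that can leave the brain.

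Promoters of 6 members are shown because SREBPs act at short elements close to the transcription start, in company with the CCAAT-binding factor NF-Y. *Acat2* and *Hmgcs1* are the synthesis members whose 250 bases before the start held CACCCCAC, the core of the sterol regulatory element, and *Cyp51*, *Hsd17b7*, *Ebp* and *Insig1* were added after their values were seen. The sequences were taken from RefSeq on GRCm38.p6, at chr17:12960726-12960975 on the minus strand for *Acat2*, chr13:119690101-119690350 on the plus strand for *Hmgcs1*, chr5:4104698-4104947 on the minus strand for *Cyp51*, chr1:169969206-169969455 on the minus strand for *Hsd17b7*, chrX:8193513-8193762 on the minus strand for *Ebp* and chr5:28071162-28071411 on the plus strand for *Insig1*. Each is printed 5′ to 3′ on the strand of the gene and ends at the last base before the start. Capitals mark CACCCCAC or its reverse complement GTGGGGTG, and CCAAT or its reverse complement ATTGG.
Acat2: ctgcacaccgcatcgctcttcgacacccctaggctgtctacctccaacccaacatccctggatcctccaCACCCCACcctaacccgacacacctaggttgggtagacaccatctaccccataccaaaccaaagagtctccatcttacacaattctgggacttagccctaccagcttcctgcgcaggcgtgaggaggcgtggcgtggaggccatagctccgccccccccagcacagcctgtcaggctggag
Hmgcs1: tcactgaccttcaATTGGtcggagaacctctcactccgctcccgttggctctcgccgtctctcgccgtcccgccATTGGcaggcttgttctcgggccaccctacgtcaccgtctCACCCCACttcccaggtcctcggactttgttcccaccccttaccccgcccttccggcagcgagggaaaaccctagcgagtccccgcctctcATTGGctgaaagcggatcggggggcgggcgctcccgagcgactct
Cyp51: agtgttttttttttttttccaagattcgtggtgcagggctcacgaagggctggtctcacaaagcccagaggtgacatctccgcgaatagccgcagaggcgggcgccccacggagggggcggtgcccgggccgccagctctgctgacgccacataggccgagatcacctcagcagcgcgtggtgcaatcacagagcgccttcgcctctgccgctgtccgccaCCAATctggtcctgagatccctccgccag
Hsd17b7: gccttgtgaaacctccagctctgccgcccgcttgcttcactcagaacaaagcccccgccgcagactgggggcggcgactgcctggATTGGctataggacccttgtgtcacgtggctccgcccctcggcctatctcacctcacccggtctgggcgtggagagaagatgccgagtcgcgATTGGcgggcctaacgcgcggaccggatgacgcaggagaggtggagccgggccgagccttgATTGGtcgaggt
Ebp: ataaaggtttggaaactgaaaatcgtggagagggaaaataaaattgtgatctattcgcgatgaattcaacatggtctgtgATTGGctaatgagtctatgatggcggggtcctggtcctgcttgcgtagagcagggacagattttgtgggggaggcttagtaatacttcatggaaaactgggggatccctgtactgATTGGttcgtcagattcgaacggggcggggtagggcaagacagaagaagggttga
Insig1: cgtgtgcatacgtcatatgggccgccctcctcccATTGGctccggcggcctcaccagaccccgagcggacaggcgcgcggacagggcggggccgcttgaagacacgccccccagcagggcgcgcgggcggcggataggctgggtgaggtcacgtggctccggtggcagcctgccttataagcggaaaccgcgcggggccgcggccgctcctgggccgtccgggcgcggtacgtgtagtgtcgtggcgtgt

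In *Hmgcs1* the leftmost base of CACCCCAC lay at position -136 from the start, between ATTGG sites at -237, -176 and -45. *Acat2* held CACCCCAC at -181 and no CCAAT. *Hsd17b7* held ATTGG at -165, -73 and -12, *Ebp* at -170 and -55, *Insig1* at -216, and *Cyp51* held CCAAT at -29. A promoter was found for 25 of the 32 members and for 14 of the 17 synthesis members. *Fdps*, *Fdft1*, *Sqle*, *Stard4*, *Abcg1*, *Npc1* and *Lpl* had no entry. CACCCCAC on either strand was found in 2 of the 14 synthesis members (14.3%) and in 3.0% of the 17492 protein-coding genes of the table. CCAAT on either strand was found in 13 of the 14 (92.9%) and in 7 of the 11 other members (63.6%), against 39.5% of the protein-coding genes. A gene with several listed starts counted as holding a motif when any of its promoters did. Such a match describes the letters of the window and is not a measured binding site.

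Marker genes of cell types were read in the same tissue. The lists hold no marker of a cortical region, so the label of cerebral cortex was not tested by them. The 5 neuronal markers had mean log2 signals between 7.11 and 11.50, and the 7 astrocyte markers between 6.18 and 11.46. All 8 myelin and oligodendrocyte markers were lower in SAMP8 + Water than in SAMR1 + Water, and their summed linear signal was 10633 in SAMR1 + Water, 9305 in SAMP8 + Water and 9032 in SAMP8 + STEE. The summed linear signal of the 7 astrocyte markers was 7379, 7045 and 7108 in the same order, that of the 6 microglial markers 883, 815 and 817, and that of the 5 neuronal markers 7697, 8527 and 8507. Of the microglial markers, 3 were higher in SAMP8 + Water than in SAMR1 + Water and 3 lower, with a median log2 difference of 0.040. The brightest of them, *Csf1r*, had the lowest difference, -0.21. For 4 endothelial markers the summed linear signal was 436, 474 and 506. Between SAMP8 + Water and SAMR1 + Water only *Ly6c1* was higher, by 0.28, at a probe set naming 2 genes. The other 3 were lower, and the median log2 difference of the list was -0.050. All 4 were higher in SAMP8 + STEE than in SAMP8 + Water, against 48.4% of all genes, with a median log2 difference of 0.105. Among 5 markers of the choroid plexus, a tissue that borders the ventricles, *Ttr* was 10.20, 8.24 and 9.33 on the log2 scale, which set the summed signal of that list at 1215, 339 and 679, while the others had mean log2 signals between 2.70 and 3.58. The part of these cell types in the values below was not tested, and in pieces of tissue fewer cells of a type and less RNA per cell cannot be told apart.

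Between the strains, genes of the later synthesis steps were mostly higher in SAMP8 + Water than in SAMR1 + Water, while the gene of the last step, *Dhcr7*, and the regulators *Srebf1* and *Insig1* were lower. A difference counted as past the fold threshold when the group means differed by at least 1.2-fold, which is 0.263 on the log2 scale. By this threshold 3 of the 32 members were higher in SAMP8 + Water (*Hsd17b7*, *Ebp* and *Cyp51*), against 3.68% of all genes, and 3 were lower (*Dhcr7*, *Srebf1* and *Insig1*), against 3.19% of all genes. A mean log2 signal of at least 5 was reached by 30 of the 32 members, the called ones included, and of the 10609 genes with such a signal 6.06% were higher and 4.63% lower by this threshold. The median log2 difference of the members was 0.065, against 0.00 over all genes and 0.01 over those of higher signal. The median of the absolute log2 difference was 0.145 in the members, 0.070 over all genes and 0.090 over the genes with a signal of at least 5. Above 0 were 17 members (53.1%), against 47.1% of all genes, and below 0 were 14 (43.8%), against 49.1% of all genes. Over the genes with a signal of at least 5, the shares were 51.3% above 0 and 45.5% below, so the members' split by sign was close to that of genes of like signal.

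**Figure D1:**
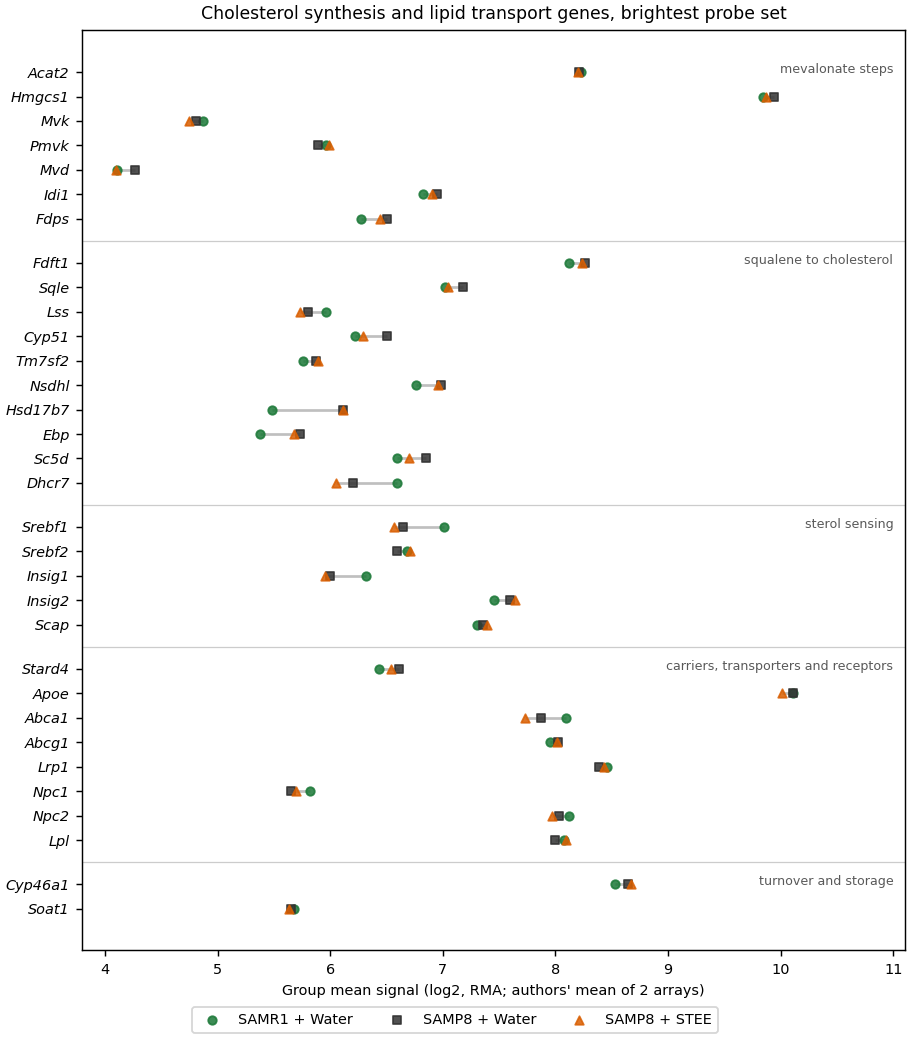
Group mean signal of the 32 members at their brightest probe set, on the log2 scale (horizontal axis), with a row for each gene grouped by role. Circles stand for SAMR1 + Water, squares for SAMP8 + Water and triangles for SAMP8 + STEE, each the authors' mean of 2 arrays without an error, and a gray line spans the 3 means. The widest spans are those of *Hsd17b7*, where SAMR1 + Water stands apart at 5.48, and of *Dhcr7*, from 6.59 to 6.05.

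The 7 members of the mevalonate steps had a median log2 difference of 0.10 between SAMP8 + Water and SAMR1 + Water. Above 0 were 4, against 47.1% of all genes, and below 0 were 3, against 49.1%. None of the 7 differences was past the fold threshold. *Fdps*, whose product farnesyl diphosphate feeds sterols and protein prenylation, had the highest of these differences. Its authors' mean log2 signal was 6.27 in SAMR1 + Water, 6.50 in SAMP8 + Water and 6.44 in SAMP8 + STEE, so that both SAMP8 groups lay above SAMR1, and a probe set of mean log2 signal 2.48 differed by -0.04. *Mvd*, which decarboxylates mevalonate diphosphate, was 4.11, 4.27 and 4.10 in the same order, with the water-given SAMP8 mice above both other groups, at a low signal, and its dimmer probe set differed by -0.03 between the strains. *Idi1*, the isomerase of the isoprenoid units, was 6.82, 6.95 and 6.90.

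*Hmgcs1* codes for the cytosolic synthase of the mevalonate pathway. At its brightest probe set it was 9.84 in SAMR1 + Water, 9.94 in SAMP8 + Water and 9.87 in SAMP8 + STEE. Of its 5 probe sets, 4 were higher in SAMP8 + Water than in SAMR1 + Water, by 0.10 to 0.27 on the log2 scale, and the dimmest, with a mean log2 signal of 2.90, differed by -0.34. *Acat2*, the cytosolic thiolase that starts the pathway, was 8.23, 8.21 and 8.20, so that the 3 means lay within 0.03. Its other probe set, shared with *Acat3*, was 5.78, 5.97 and 5.92. The kinases that add phosphate to mevalonate stood close together in the groups, with *Mvk* at 4.87, 4.81 and 4.75 and *Pmvk* at 5.96, 5.89 and 5.99.

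From squalene to cholesterol, 8 of 10 members were higher in SAMP8 + Water than in SAMR1 + Water and 2 were lower, with a median log2 difference of 0.19. Above 0 were 47.1% of all genes and 51.3% of those with a signal of at least 5. *Hsd17b7* codes for the reductase of the sterol 3-keto group. It was 5.48 in SAMR1 + Water, 6.11 in SAMP8 + Water and 6.11 in SAMP8 + STEE, a difference of 0.63 (1.55-fold), and 0.706% of all genes were at least as far above 0. This probe set carries the array's x suffix, given where probes may match other transcripts, and the other probe sets of *Hsd17b7* differed by 0.40, 0.21 and -0.07. The last of these had a mean log2 signal of 3.25.

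*Ebp* codes for the sterol isomerase that shifts the double bond of the ring. Its mean log2 signal was 5.38, 5.73 and 5.68 in SAMR1 + Water, SAMP8 + Water and SAMP8 + STEE, a difference of 0.35 (1.28-fold) between the strains at its single probe set. *Cyp51*, the lanosterol demethylase, was 6.22, 6.50 and 6.29, a difference of 0.28 (1.21-fold) between the strains. At this probe set SAMP8 + STEE lay 0.07 above SAMR1 + Water, while at the dimmer ones it differed from SAMR1 + Water by -0.18 and -0.04. The dimmer *Cyp51* probe sets differed by 0.13 and -0.01 between the strains.

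*Sc5d*, which introduces a further double bond into the ring, was just short of the fold threshold. It was 6.59 in SAMR1 + Water, 6.85 in SAMP8 + Water and 6.70 in SAMP8 + STEE, a difference of 0.26, and its dimmer probe sets differed by 0.23 and -0.05. *Nsdhl*, which takes part in removing the methyl groups at carbon 4 of the ring, was 6.76, 6.98 and 6.96. *Tm7sf2*, a sterol reductase of the ring, was 5.76, 5.87 and 5.89. For these genes SAMR1 + Water was the lowest of the groups.

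The genes of the enzymes that make squalene and its epoxide, *Fdft1* and *Sqle*, had the same direction. *Lss*, the gene of the ring closure into the first sterol, had the opposite one. *Fdft1*, squalene synthase, was 8.12, 8.26 and 8.24 in SAMR1 + Water, SAMP8 + Water and SAMP8 + STEE, and all 4 of its probe sets, the brightest also of the x kind, were higher in SAMP8 + Water than in SAMR1 + Water, by 0.03 to 0.25. *Sqle*, squalene epoxidase, was 7.02, 7.18 and 7.05. *Lss*, the cyclase that forms lanosterol, was 5.96, 5.80 and 5.73, and all 3 of its probe sets were lower in SAMP8 + Water than in SAMR1 + Water, with differences from -0.16 to -0.03.

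*Dhcr7* codes for the reductase of 7-dehydrocholesterol, the enzyme of the final step in one branch of the pathway. Its mean log2 signal was 6.59 in SAMR1 + Water, 6.20 in SAMP8 + Water and 6.05 in SAMP8 + STEE. At this single probe set SAMP8 + Water was lower, with a difference of -0.39 (1.31-fold), the lowest of the 32 members, and 1.07% of all genes were at least as far below 0. The myelin and oligodendrocyte list was lower in the same comparison, with a median log2 difference of -0.295, and whether it has a part in *Dhcr7* was not tested.

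Counted over probe sets instead of genes, 25 of the 38 probe sets of the 17 synthesis members were higher in SAMP8 + Water than in SAMR1 + Water and 13 were lower. Of the 24 with a mean log2 signal of at least 5, 19 were higher (79.2%) and 5 lower (20.8%). Those 5 belonged to *Acat2*, *Pmvk*, *Lss* with 2, and *Dhcr7*. Genes with such a signal, read from their brightest probe set, were above 0 in 51.3% and below in 45.5%. That is a share of genes and not of probe sets, and a share over all probe sets was not computed. Probe sets of a gene share their RNA and often their transcript, so these counts are not independent of the counts of genes.

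**Figure D2:**
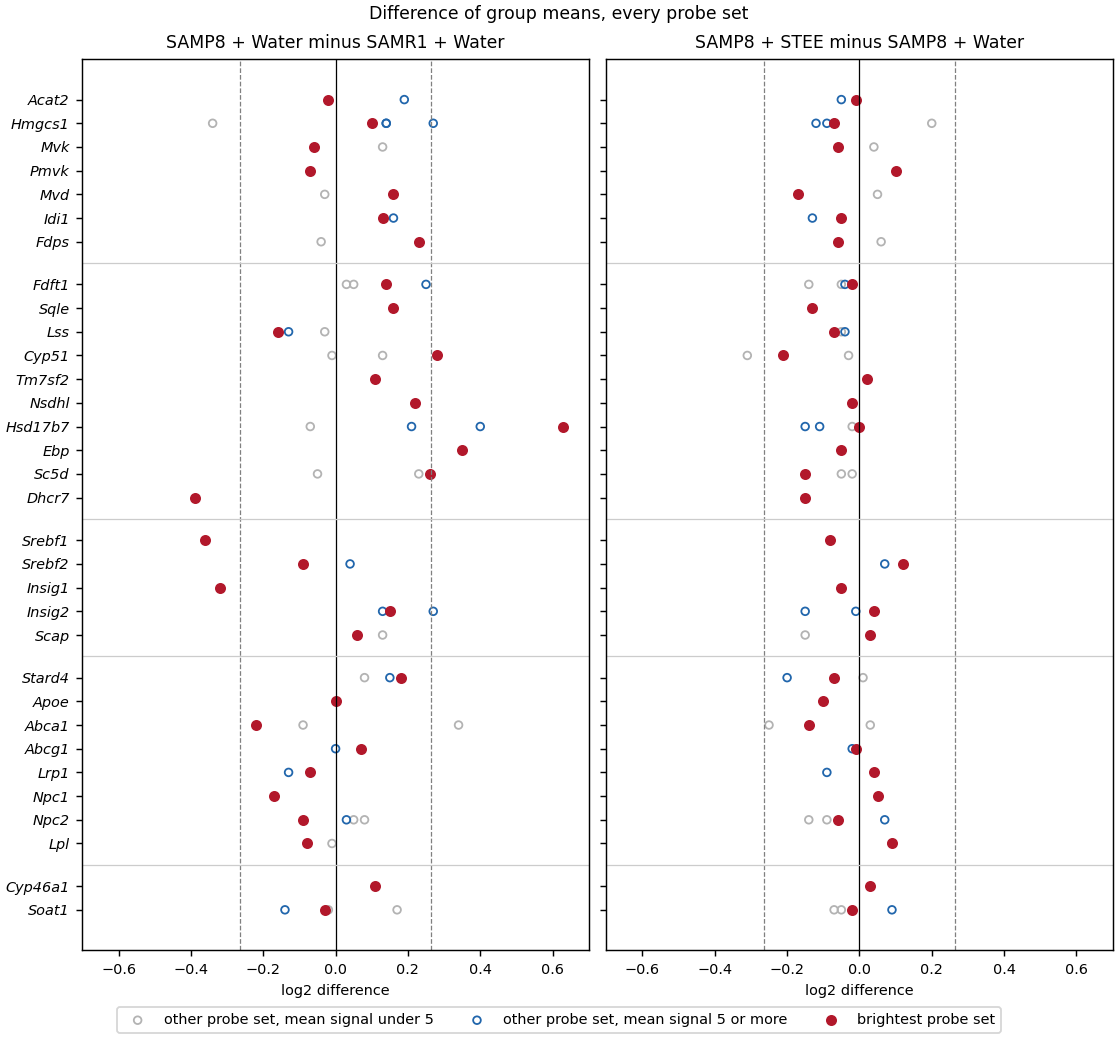
Log2 difference of the group means for every probe set of the 32 members, SAMP8 + Water minus SAMR1 + Water on the left and SAMP8 + STEE minus SAMP8 + Water on the right. Filled points are the brightest probe set of each gene, open blue circles other probe sets with a mean log2 signal of 5 or more, open gray circles dimmer ones, and dashed lines mark the 1.2-fold threshold. On the left the filled points run from -0.39 for *Dhcr7* to 0.63 for *Hsd17b7*, and on the right they lie between -0.21 and 0.12, inside the dashed lines.

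Among the sterol-sensing members, *Srebf1* and *Insig1* were lower in SAMP8 + Water and their relatives *Srebf2* and *Insig2* were not past the threshold in either direction. *Srebf1*, whose product SREBP1 drives fatty acid synthesis more than sterol synthesis, was 7.01 in SAMR1 + Water, 6.65 in SAMP8 + Water and 6.57 in SAMP8 + STEE, a difference of -0.36 between the strains (1.28-fold). *Insig1*, itself a target gene of SREBPs, was 6.32, 6.0 and 5.95, a difference of -0.32 (1.25-fold). Each has a single probe set, and in each both SAMP8 groups lay below SAMR1.

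*Srebf2*, which codes for SREBP2, was 6.68, 6.59 and 6.71 in the same order, and its other probe set was 5.79, 5.83 and 5.90, so that the direction between the strains differed between probe sets. *Insig2*, the second INSIG gene, was 7.45, 7.60 and 7.64, and its 3 probe sets were all higher in SAMP8 + Water than in SAMR1 + Water, by 0.13 to 0.27. *Insig1* and *Insig2* thus had opposite signs between the strains. *Scap*, the escort protein of the SREBPs, was 7.30, 7.36 and 7.39.

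The 8 members that carry, export, take up or release lipids differed little between the strains, with a median log2 difference of -0.075 and none past the fold threshold. *Abca1*, which exports cholesterol to apolipoprotein E, had the lowest value. It was 8.09 in SAMR1 + Water, 7.87 in SAMP8 + Water and 7.73 in SAMP8 + STEE, a difference of -0.22 between the strains, but a dim probe set of *Abca1*, with a mean log2 signal of 3.64, was higher by 0.34. *Abcg1*, the other exporter, was 7.95, 8.02 and 8.01, and *Apoe*, the main lipoprotein component made by astrocytes, was 10.11, 10.11 and 10.01.

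*Npc1*, the lysosomal membrane protein that releases cholesterol from endocytosed particles, was 5.82 in SAMR1 + Water, 5.65 in SAMP8 + Water and 5.70 in SAMP8 + STEE. Its soluble partner *Npc2* was 8.12, 8.03 and 7.97, and the probe sets of *Npc2* ran from -0.09 to 0.08 between the strains, to both sides of 0. *Stard4*, a carrier of cholesterol in the cytosol and a known SREBP target, was the one gene of this group above 0.10, at 6.43, 6.61 and 6.54, and all 3 of its probe sets were higher in SAMP8 + Water than in SAMR1 + Water. *Lrp1*, the receptor for apolipoprotein E particles, was 8.46, 8.39 and 8.43. *Lpl*, the lipase that releases fatty acids from lipoproteins, was 8.08, 8.00 and 8.09.

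For turnover and storage, *Cyp46a1*, the neuronal 24-hydroxylase, was 8.53 in SAMR1 + Water, 8.64 in SAMP8 + Water and 8.67 in SAMP8 + STEE. *Soat1*, which esterifies cholesterol for storage, was 5.68, 5.65 and 5.63, and its 4 probe sets ran from -0.14 to 0.17 between the strains. Neither gene was past the fold threshold.

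With STEE, no member was past the fold threshold, against 1.1% of all genes higher and 0.923% lower in SAMP8 + STEE than in SAMP8 + Water. The differences were small and more often below 0 than above. Below 0 were 22 of the 32 members, against 46.9% of all genes, and above 0 were 9, against 48.4% of all genes, with 1 at 0.00. The median log2 difference of the members was -0.050, and that of all genes was 0.00, or 0.02 over the 10609 genes with a mean log2 signal of at least 5, of which 38.8% were below 0 and 56.3% above. The median absolute log2 difference was 0.060 in the members and 0.060 over all genes, so the members did not lie farther from 0 than other genes.

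The synthesis members made up most of this. Of the 17, 14 (82.4%) were lower in SAMP8 + STEE than in SAMP8 + Water. Below 0 were 46.9% of all genes and 38.8% of those with a signal of at least 5. Of the 17, 2 were higher (*Pmvk* by 0.10 and *Tm7sf2* by 0.02) and *Hsd17b7* was at 0.00 at its brightest probe set. The median of the 17 was -0.060, and their median absolute log2 difference was 0.060, the same as over all genes. Of their 24 probe sets with a mean log2 signal of at least 5, 21 were lower with STEE. A share over all probe sets was not computed. *Cyp51* had the lowest difference, -0.21 (1.16-fold), and its dimmer probe sets differed by -0.31 and -0.03. The next brightest probe sets of *Hsd17b7* differed by -0.15 and -0.11. *Mvd* differed by -0.17, *Sc5d* by -0.15, *Dhcr7* by -0.15 and *Sqle* by -0.13. The other probe set of *Mvd* differed by 0.05, in the opposite direction. All of these are differences between means of 2 arrays, without a replicate error.

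Outside synthesis, *Srebf2* had the highest difference with STEE, 0.12, with 0.07 at its other probe set. *Lpl* was higher by 0.09 at its brightest and by 0.09 at its other probe set. *Abca1* differed by -0.14, *Apoe* by -0.10 and *Srebf1* by -0.08. *Insig2* was higher by 0.04 at its brightest probe set, while its others differed by -0.01 and -0.15. *Scap* and *Cyp46a1* were each higher by 0.03, *Lrp1* by 0.04 and *Npc1* by 0.05, while *Stard4* differed by -0.07, *Npc2* by -0.06, *Soat1* by -0.02, *Abcg1* by -0.01 and *Insig1* by -0.05.

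**Figure D3:**
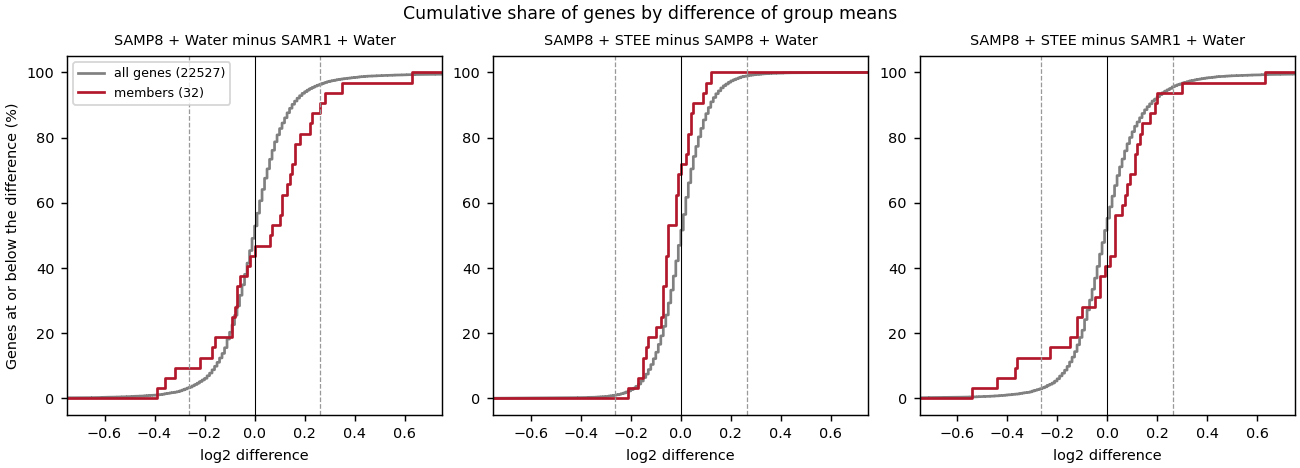
Cumulative share of genes (vertical axis, percent) at or below a given log2 difference of group means (horizontal axis), for the 32 members in red and all 22527 genes in gray, in each of 3 comparisons. Dashed lines mark the 1.2-fold threshold. In SAMP8 + Water minus SAMR1 + Water the curves cross near 0. There the members lie mostly to the left of all genes below 0 and to the right above 0, with a median of 0.065. In SAMP8 + STEE minus SAMP8 + Water they lie to the left over most of the range, with a median of -0.050.

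The comparison of the strains and the comparison with STEE share the SAMP8 + Water arrays, which enter them with opposite signs, so no overlap between them is given. The comparison of SAMP8 + STEE with SAMR1 + Water leaves these arrays out. It still shares the SAMR1 + Water arrays with the comparison of the strains. It also shares the SAMP8 + STEE arrays with the comparison with STEE, so it is independent of neither. In it 2 members were higher by at least 1.2-fold (*Hsd17b7* by 0.63 and *Ebp* by 0.30), against 4.44% of all genes, and 4 were lower (*Dhcr7*, *Srebf1*, *Insig1* and *Abca1*), against 2.93% of all genes. Above 0 were 19 members (59.4%), against 44.7% of all genes, and below 0 were 13 (40.6%), against 51.5% of all genes. Over the genes with a signal of at least 5, 55% were above 0 and 42.2% below, close to the members' shares, and 7.6% were higher and 4.11% lower by the fold threshold. *Dhcr7* differed by -0.54 (1.45-fold), *Srebf1* by -0.44 (1.36-fold), *Insig1* by -0.37 (1.29-fold) and *Abca1* by -0.36 (1.28-fold). For *Abca1* the direction depended on the probe set, since the one of mean log2 signal 3.64 was higher by 0.09. The median over the 17 synthesis members was 0.070, with 12 above 0 and 5 below, and the myelin and oligodendrocyte list had a median of -0.380.

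The rest of the pathway was read from 36 further genes. Between the strains 3 of them were higher in SAMP8 + Water by at least 1.2-fold and 3 lower, against 3.68% and 3.19% of all genes and 6.06% and 4.63% of those with a signal of at least 5, their median log2 difference was -0.020, and with STEE none was past the threshold, with a median of -0.010. *Msmo1*, listed on the array under its older symbol *Sc4mol* and a partner of *Nsdhl* in removing methyl groups, was 7.77 in SAMR1 + Water, 8.05 in SAMP8 + Water and 7.95 in SAMP8 + STEE, and its other probe set differed by -0.15. *Ggps1*, which draws farnesyl diphosphate into geranylgeranyl diphosphate, was 6.67, 7.31 and 7.34 in the same order, a difference of 0.64 between the strains, but its 4 probe sets ran from -0.60 to 1.45. For both genes the direction between the strains differed between the probe sets of the gene.

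Of the 11 genes of fatty acid synthesis linked to SREBPs, *Me1*, which supplies NADPH, was higher in SAMP8 + Water than in SAMR1 + Water at 7.16 against 6.76, and *Fads2*, a fatty acid desaturase, was lower at 6.85 against 7.15. The list had a median log2 difference of -0.060, with 4 genes above 0, against 47.1% of all genes, and 7 below, against 49.1%. Among 11 other carriers and receptors, *Pltp*, the phospholipid transfer protein, was lower in SAMP8 + Water at 8.47 against 8.90, and both of its probe sets were lower, with differences of -0.43 and -0.25. Among 10 genes of oxysterols and the liver X receptors, *Mylip*, a liver X receptor target that degrades lipoprotein receptors, was lower at 6.90 against 7.17. Between SAMP8 + STEE and SAMR1 + Water, *Acss2*, which makes acetyl-CoA from acetate, was higher by 0.28 at its brightest of 4 probe sets, which ran down to -0.09, and *Cyp27a1*, a sterol hydroxylase, was lower with a difference of -0.41, at a low signal of 4.83 in SAMR1 + Water and 4.42 in SAMP8 + STEE.

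**Figure D4:**
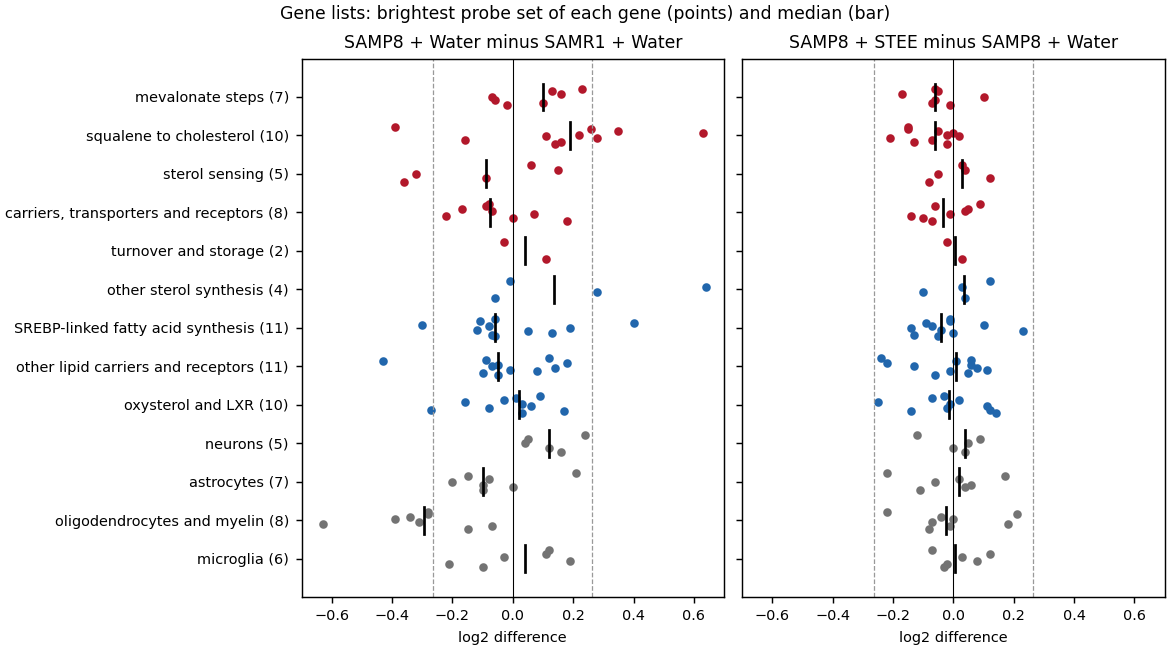
Log2 difference of the group means for each gene of a list, read from its brightest probe set (points), and the median of the list (black bar), with the number of genes in parentheses. Members are red, other genes of the pathway blue and cell type markers gray, and dashed lines mark the 1.2-fold threshold. Between the strains the squalene-to-cholesterol members center on 0.19 and the myelin and oligodendrocyte markers on -0.295, and with STEE the medians of the lists drawn here, which leave out the endothelial, choroid plexus and blood markers, lie between -0.060 and 0.04.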

How the data were processed

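Cortical RNA was hybridized to Affymetrix mouse genome array strips. Per the labels and methods, the authors summarized probe intensities with RMA in Expression Console and averaged each group in Transcriptome Analysis Console. They deposited 2 tables of 45077 probe sets with group mean log2 signals (bi-weight averages of 2 arrays, rounded to 2 decimals). RMA normalizes arrays to a common distribution and compresses small differences at low signal. The genome build behind the array annotation is not given in the sources used here. The tables also hold the authors' fold changes, ANOVA p-values and FDR p-values, which were left unused. The SAMP8 + Water means were identical in both tables (0 probe sets differed), so the 3 groups were set side by side.

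Symbol entries were split where they named several genes, each gene was read from its brightest probe set, and differences of group means were taken on the log2 scale in Python 3.11.15 with pandas 2.3.3, numpy 2.4.6 and matplotlib 3.10.9. No test was made on the group means alone, and a gene was counted when group means differed by at least 1.2-fold, beside the share of all 22527 genes. No symbol was given for 5694 probe sets. The number of arrays limits the precision. The calculation was tested on simulated data. All 32 members, and the other pathway genes past the threshold, are named, and marker genes are given as lists. A gene of the pathway is not reported here. Members and lists were chosen with earlier results of these data known. *Msmo1* was matched through its older symbol in the RefSeq table of GRCm38.p6. Alternatives were other probe sets, thresholds of 1.1 and 1.5, centering, a filter at a log2 signal of 5, and 2 chosen after seeing the data.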

Additional observations from a re-analysis of the deposited data

How the results depend on the processing

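The median log2 difference of the members kept its sign under every alternative that was run, from 0.060 to 0.130 in SAMP8 + Water minus SAMR1 + Water (0.130 at the second brightest probe set, against 0.065), from -0.050 to -0.035 in SAMP8 + STEE minus SAMP8 + Water and from 0.030 to 0.050 in SAMP8 + STEE minus SAMR1 + Water. In SAMP8 + Water minus SAMR1 + Water, a threshold of 1.1 gave 11 members higher and 6 lower (12.4% of all genes in each direction). A threshold of 1.5 gave 1 and 0 (0.79% and 0.368% of all genes). Reading the second brightest probe set, which leaves 21 members, gave 0 lower (2.88% of genes with such a probe set), since *Dhcr7*, *Srebf1* and *Insig1* have a single probe set. In the same comparison 2 members were higher with the mean over all probe sets (2.74% of all genes), where *Cyp51* was at 0.13. Without probe sets of the x or s kind 2 were higher (3.72% of the genes left), and *Hsd17b7* was at 0.21. In SAMP8 + STEE minus SAMP8 + Water, the second brightest probe set gave 1 lower (*Cyp51*), against 0.974% of genes with such a probe set. There a threshold of 1.1 gave 5 lower (7.44% of all genes) and 0 higher (7.73%). In SAMP8 + STEE minus SAMR1 + Water, the count of members higher was 1 with the mean over all probe sets (3.53% of all genes) and 0 with the second brightest (6.51%). It was 6 at a threshold of 1.1 (13.9%) and 1 at 1.5 (0.803%). The count lower was 0 with the second brightest (2.87%) and 0 at 1.5 (0.377%). Chosen after seeing the data, leaving out probe sets of the x or s kind gave 1 higher there (4.62% of the genes left), and leaving out *Hsd17b7* gave 1 (4.44%). *Abca1* reversed there to 0.09 at its second brightest probe set. The cause of the disagreement between its probe sets was not tested. Leaving out a replicate could not be run on group means. No paired analysis was possible because the tables hold group means without values per array. Signal limits the dimmer probe sets: *Mvk* and *Mvd* lay under a mean log2 signal of 5.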
